A study of Homo sapiens with 6 samples.

Results

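The genes described here are the MAGE family and other cancer-testis antigens in A-375, an established human melanoma line. They were chosen by symbol: MAGE, GAGE, XAGE, PAGE, CSAG, SSX or CTAG followed by a digit or letter, or PRAME, NDN, BAGE, TRAG3 or CT83, with no pseudogene name and a total of at least 30 reads over the 6 libraries. That read total is the only measured value in the rule, but the family was picked out with results of these data known. The rule found 32 members among the 21631 symbols of the count table. Of 41 symbols with such a name, 3 had a pseudogene name and 6 others had fewer reads. Members just inside the read minimum were MAGEC3 with 32 reads, MAGEC1 with 34 and MAGEB2 with 37, and just outside it lay XAGE3 with 26 and PAGE1 with 24. SSX2IP carries the prefix only because its product binds an SSX protein, and CSAG4 is a transcribed pseudogene in RefSeq although its symbol does not say so.

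RNA was sequenced from 3 A-375 libraries labelled with a control guide, sgCTRL, and 3 labelled with a guide against SEPHS2, sgSEPHS2, the gene for the enzyme that makes selenophosphate. The comparison asks how expression differs in cells labelled as SEPHS2 knockout. The labels give no treatment or time and name no separate knockout lines, so for each gene SEPHS2 loss and a difference between the founding cells cannot be told apart. Whether the replicates were separate cultures is not stated, and the p-values therefore rest on a spread between libraries that may be technical.

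Libraries held 34606145 to 43405579 counted reads. SEPHS2 mRNA itself was not lower in the libraries labelled sgSEPHS2, at 173 ± 3.85 CPM (read counts scaled to library size) against 156 ± 3.31 CPM in sgCTRL (SD, n = 3 per group), so each direction below rests on the labels. It was slightly higher there, without overlap of the groups (edgeR log2 fold change 0.15, SE 0.04, adjusted p = 0.00401). Of 10 markers of melanoma lines 6 reached 1 CPM in each group, SOX10 at 619 and 568 CPM among them. The pigment gene TYR had no read in sgCTRL and PMEL stood at 0.964 and 0.971 CPM. Of 10 germ cell markers only DDX4 and KIT were in the table, with summed levels of 0.451 to 0.877 CPM in sgCTRL and 0.381 to 0.998 CPM in the libraries labelled sgSEPHS2. Summed fibroblast markers ranged from 73.2 to 74.8 CPM in sgCTRL and from 48.3 to 54.5 CPM in the other group, mostly PDGFRB. Immune markers summed to 3.49 to 4.51 and 6.66 to 7.20 CPM, mostly LYZ, and PTPRC was at 0.132 and 0.00822 CPM. Epithelial markers summed to 0.901 to 1.83 and 2.00 to 2.55 CPM, and endothelial markers to 8.69 to 9.51 and 7.82 to 8.73 CPM. The part of these marker levels in the members' differences was not tested.

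Cancer-testis antigens are proteins normally made in male germ cells that many tumours, melanoma above all, make again, and their peptides can be shown to T cells. Most are encoded in clusters on the X chromosome, and their silence in other tissues is kept largely by DNA methylation of their promoters. The MAGE proteins share a MAGE homology domain through which several bind RING ubiquitin ligases. Type I members (MAGEA, MAGEB and MAGEC) are the cancer-testis genes, and type II members (MAGED, MAGEE, MAGEF, MAGEH and necdin, NDN) are made in many tissues.

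Among the members, 4 type I MAGE-A mRNAs were modestly higher, 1 (MAGEA11) was lower and 4 type I genes were not called in the libraries labelled sgSEPHS2, while 4 type II MAGE mRNAs were lower and 2 not called. MAGEA4, the most abundant member, rose 1.32-fold and MAGEA10 rose 1.48-fold. NDN fell from about 5 CPM to almost no reads, MAGEH1 fell 7.65-fold, and MAGED1 and MAGED2 fell 1.55-fold and 1.43-fold. MAGEB2 had reads in every control library and 0 in each library labelled sgSEPHS2. Of the 32 members 28 passed the expression filter, and at an edgeR adjusted p under 0.05 over all genes tested 9 of these were higher, 8 lower and 11 not called. Over all 16910 tested genes 45.4% were called, 22.0% higher and 23.4% lower. The members' share was 60.7%, beside 52.6% of 542 other tested genes on the X chromosome, where 28 of the 32 members lie. Groups did not overlap for 16 of the 28, beside 52.1% of all tested genes. The median log2 fold change was 0.08 for the tested members and 0.01 for all tested genes. In these bulk libraries, fewer cells making an mRNA and less of it per cell cannot be told apart. NDN and MAGEH1 passed the filter through the control libraries, and several members share reads, so these counts are a description and not a test of the family.

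**Figure D1:**
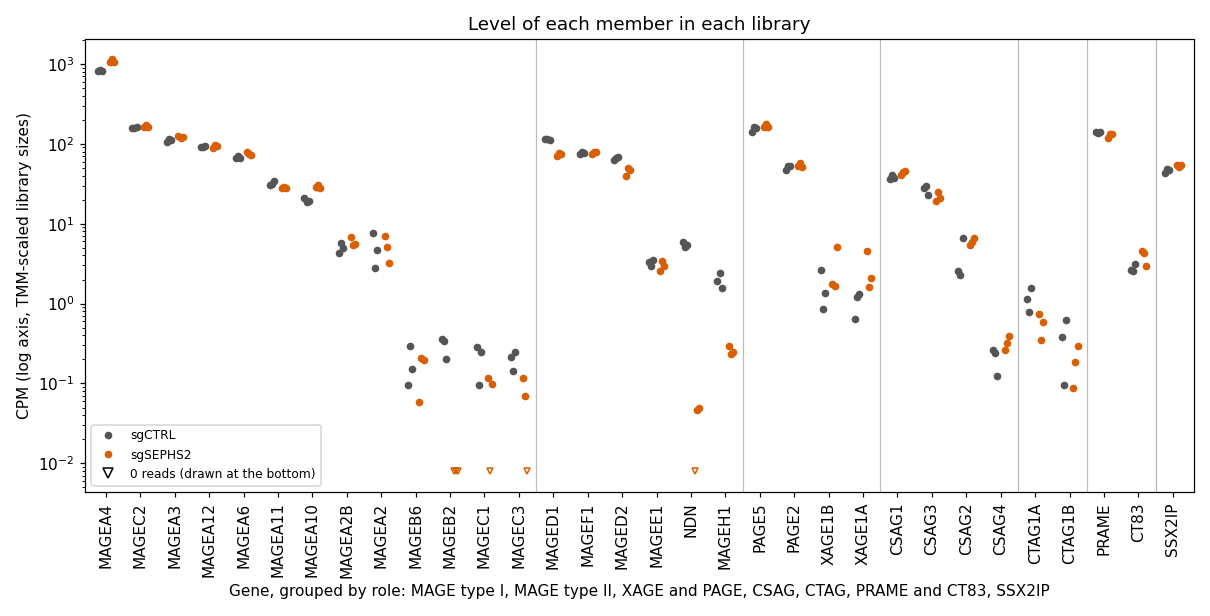
Level of each of the 32 members in each library, as CPM on a log axis, grouped by role and ordered by total reads. Grey points are the 3 sgCTRL libraries and orange points the 3 libraries labelled sgSEPHS2, with 0 reads drawn as open triangles at the bottom. MAGEA4 stands above 800 CPM in every library, and NDN, MAGEH1 and MAGEB2 show the widest gaps between groups.

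Together the members took 0.203% to 0.208% of the reads of each sgCTRL library and 0.222% to 0.237% of each library labelled sgSEPHS2. MAGEA4 alone supplied 39.7% to 40.5% of the members' reads in sgCTRL and 46.6% to 47.8% in the other group. To compare genes, levels were divided by the merged exon length of each gene in GENCODE v29, which may differ from the annotation used for counting. In sgCTRL, MAGEA4 led with 267 ± 4.42 CPM per kb (SD, n = 3), followed by PAGE5 with 206 ± 16.6 CPM per kb. MAGEC2 at 79.9 ± 1.17 and PAGE2 at 76.9 ± 5.59 CPM per kb came next and lay within each other's spread. MAGEA3 followed with 62.4 ± 2.80 CPM per kb, and then MAGEA12 at 47.5 ± 0.676 and MAGEF1 at 47.2 ± 1.60 CPM per kb, again within their spread. PRAME at 37.0 ± 0.569, MAGEA6 at 36.3 ± 1.12 and CSAG1 at 34.8 ± 2.05 CPM per kb formed a further group whose values lie close together. For genes that share sequence with others, PAGE2, MAGEA3 and MAGEA6 among them, the level also depends on how shared reads were counted. The SD between libraries does not measure that.

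Several members are near-identical copies, and which copy a read is given to depends on the aligner and counter. MAGEA3 and MAGEA6 are the most abundant such pair. Their coding sequences, each in 1 exon, are both 942 bases long and differ at 18 positions (98.1% identity), with a longest identical stretch of 308 bases. The 90-base window with the most differences, bases 434 to 523 of the coding sequence, is shown because it marks where reads of the pair can be told apart. It is chrX:152701266-152701355 on the forward strand for MAGEA3 and chrX:152767128-152767217 on the reverse strand for MAGEA6 (GRCh38, GENCODE v29 transcripts), and capitals mark the 4 differing bases.
MAGEA3: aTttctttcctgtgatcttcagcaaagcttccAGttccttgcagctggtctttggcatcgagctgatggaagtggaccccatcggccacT
MAGEA6: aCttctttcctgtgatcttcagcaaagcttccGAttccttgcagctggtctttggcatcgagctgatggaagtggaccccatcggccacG
Elsewhere the copies are closer still. MAGEA2 and MAGEA2B have identical coding sequences of 942 bases, as do XAGE1A and XAGE1B over 243 bases, and those of CSAG2 and CSAG3 differ at 1 of 381 bases. By shared 50-base words, 96.4% of the words in MAGEA2 transcripts also occur in MAGEA2B, 94.2% of those in CSAG2 occur in CSAG3, 100% of those in XAGE1A occur in XAGE1B and 90.3% of those in CTAG1A occur in CTAG1B. For MAGEA3 and MAGEA6 the figure was 54.9% of the words of MAGEA3. Of the words of PAGE2 38.6% occur in PAGE2B, and of those of PAGE5 12.2% occur in other genes. Less than 3% of the words of MAGEA4, MAGEC2, MAGED1, MAGED2 and PRAME, and none of those of NDN, MAGEB2, MAGEH1, MAGEE1, MAGEF1 and SSX2IP, occur in transcripts of another gene. XAGE1A also had the same count in every library as LOC124908558.

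Copied promoters go with the copied genes. The RefSeq window from 250 bases before to 50 after the start site (GRCh38.p14) was the same at all 300 positions for MAGEA3 and MAGEA6, for 1 start site of MAGEA2 and that of MAGEA2B, and for 1 start site each of XAGE1A and XAGE1B. Promoters were on file for 26 of the 32 members. CpG, the dinucleotide CG that reads the same on both strands, is the site that methylation acts on, and is in capitals in the windows below. These are shown for the shared promoter of the MAGEA3 pair, which was higher, and for NDN and MAGEB2, whose reads nearly or wholly vanished.
MAGEA3 and MAGEA6, chrX:152698544-152698843 forward (MAGEA3): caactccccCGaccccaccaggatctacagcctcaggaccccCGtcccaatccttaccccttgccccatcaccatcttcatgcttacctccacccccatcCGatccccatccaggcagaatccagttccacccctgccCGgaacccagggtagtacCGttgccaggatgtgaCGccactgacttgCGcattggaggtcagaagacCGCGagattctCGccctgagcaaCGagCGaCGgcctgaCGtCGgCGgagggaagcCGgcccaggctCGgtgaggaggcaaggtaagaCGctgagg
NDN, chr15:23687256-23687555 reverse: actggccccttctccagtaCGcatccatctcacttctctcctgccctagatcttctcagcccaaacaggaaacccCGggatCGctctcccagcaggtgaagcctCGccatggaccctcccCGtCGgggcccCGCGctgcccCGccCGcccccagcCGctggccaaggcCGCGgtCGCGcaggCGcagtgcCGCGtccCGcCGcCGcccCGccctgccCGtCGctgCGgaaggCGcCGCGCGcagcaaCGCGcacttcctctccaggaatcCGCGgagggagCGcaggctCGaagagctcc
MAGEB2, chrX:30215313-30215612 forward: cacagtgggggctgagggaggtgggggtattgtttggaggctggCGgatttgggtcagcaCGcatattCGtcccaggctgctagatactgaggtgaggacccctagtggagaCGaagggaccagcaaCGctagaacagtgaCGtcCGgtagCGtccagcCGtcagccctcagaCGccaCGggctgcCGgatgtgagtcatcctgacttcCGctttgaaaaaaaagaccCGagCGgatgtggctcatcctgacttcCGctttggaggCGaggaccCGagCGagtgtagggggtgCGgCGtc
The MAGEA3 window holds 19 CpG and 42.9% of all 35116 promoter windows hold at least as many. NDN holds 35, which 14.1% of all windows reach, and MAGEB2 holds 21, which 39.5% reach. The median window holds 14 CpG. Methylation was not measured, and a CpG count is a description of the sequence only.

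Of 13 type I MAGE members 9 were tested, with 4 higher, 1 lower and 4 not called. MAGEA4 (chrX:151912474-151925170), a cancer-testis antigen used as a target of engineered T cells, had 816, 840 and 817 CPM in sgCTRL and 1068, 1138 and 1051 CPM in the libraries labelled sgSEPHS2. The groups did not overlap, and the edgeR log2 fold change was 0.40, SE 0.04 (adjusted p = 1.02e-07). MAGEA10 (chrX:152133310-152138577), which encodes another MAGE-A antigen seen by T cells, had 20.8, 18.9 and 19.5 CPM against 29.1, 30.2 and 28.2 CPM. Every library labelled sgSEPHS2 was again above every control, with an edgeR log2 fold change of 0.57, SE 0.06 (adjusted p = 1.21e-07). The neighbours of MAGEA4 and MAGEA10 moved in both directions. VMA21 and HMGB3, at lower coordinates than MAGEA4, rose by 0.21 and 0.37 on the log2 scale (edgeR adjusted p = 2.48e-04 and 6.27e-07). GABRE, a GABA receptor subunit gene that lies between MAGEA4 and MAGEA10, fell from 13.1 ± 1.29 to 5.11 ± 0.0930 CPM (edgeR log2 fold change -1.35, adjusted p = 4.37e-10). GABRA3 and GABRQ, beyond MAGEA10, had -0.38 and -0.20 (edgeR adjusted p = 1.52e-04 and 0.556). Of the words in MAGEA10 transcripts 13.9% also occur in the read-through gene MAGEA10-MAGEA5.

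MAGEA3 and MAGEA6, whose proteins bind the ligase TRIM28 and direct it to AMPK, rose slightly. MAGEA3 (chrX:152698794-152702347) had 106, 116 and 113 CPM in sgCTRL and 125, 120 and 123 CPM in the other group (edgeR log2 fold change 0.14, SE 0.04, adjusted p = 0.0158). MAGEA6 (chrX:152766136-152769689) had 66.5, 70.1 and 66.5 CPM against 78.4, 75.3 and 72.6 CPM (edgeR log2 fold change 0.16, SE 0.05, adjusted p = 0.00895). For both genes the groups did not overlap, but the call for MAGEA3 was lost without sgCTRL replicate 1 (edgeR log2 fold change 0.10, adjusted p = 0.124). The share of the pair's reads given to MAGEA3 was 61.4% to 63.0% over the 6 libraries. With the reads of both summed before the fit, an alternative chosen after seeing the data, the pair rose by an edgeR log2 fold change of 0.15, SE 0.04 (adjusted p = 0.00633).

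MAGEA11, whose protein is a coregulator of the androgen receptor, was the called type I gene that fell. Its levels were 30.4, 31.3 and 34.5 CPM in sgCTRL and 27.6, 29.1 and 28.3 CPM in the libraries labelled sgSEPHS2 (edgeR log2 fold change -0.18, SE 0.06, adjusted p = 0.0171). The groups did not overlap, but the call was lost without sgCTRL replicate 3, the highest control (edgeR log2 fold change -0.13, adjusted p = 0.127).

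MAGEC2, a TRIM28 partner and a common melanoma antigen, had 158, 158 and 162 CPM against 163, 171 and 161 CPM, and the groups overlapped (edgeR log2 fold change 0.05, SE 0.04, adjusted p = 0.317). MAGEA12 had 91.8, 91.3 and 93.8 CPM against 88.0, 95.7 and 93.0 CPM (edgeR log2 fold change 0.00, SE 0.04, adjusted p = 0.995). The groups overlapped for both, and neither was called.

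MAGEA2 had 7.73, 2.81 and 4.68 CPM in sgCTRL and 7.06, 5.04 and 3.18 CPM in the other group (edgeR log2 fold change -0.01, SE 0.26, adjusted p = 0.983), and its log2 fold change ran from -0.30 to 0.43 as single libraries were left out. Its copy MAGEA2B had 4.25, 5.71 and 4.96 CPM against 6.79, 5.34 and 5.52 CPM (edgeR log2 fold change 0.24, SE 0.13, adjusted p = 0.159). The share of the pair's reads given to MAGEA2 ran from 33.0% to 64.6% within sgCTRL alone, so the level of either copy alone is uncertain. Summed, the pair had an edgeR log2 fold change of 0.12, SE 0.13 (adjusted p = 0.502).

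Added over the 8 MAGEA members, which keeps reads shared within the family inside the sum, the level was 1143, 1176 and 1154 CPM in sgCTRL and 1430, 1498 and 1405 CPM in the libraries labelled sgSEPHS2. No test was made of such sums. The ratio of the group means was 0.32 on the log2 scale for the family, and 0.11 for the 7 members other than MAGEA4, which summed to 327, 336 and 337 CPM against 362, 360 and 354 CPM. In both sums the groups did not overlap.

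MAGEB2, MAGEB6, MAGEC1 and MAGEC3 were the 4 members left out by the filter, each with at most 15 reads in any library. MAGEB2, an X-linked antigen of germ cells and tumours, had 15, 14 and 8 reads in sgCTRL and 0 in each library labelled sgSEPHS2. Against a floor of 3 reads over the group it was at least 11.8-fold lower, and the lower limit of the exact interval used for the members below, which takes in the counting error of both groups, was 9.10-fold. Without the filter it was called, and the edgeR adjusted p was 2.10e-04 over 21631 genes. MAGEC1 had 12, 4 and 10 reads in sgCTRL and 4, 0 and 4 in the other group, a ratio of 3.10 (95% exact conditional binomial interval 1.36 to 7.93). MAGEC3 had 9, 6 and 10 reads against 4, 3 and 0, a ratio of 3.41 (1.43 to 9.33). Neither passed when tested without the filter (edgeR adjusted p = 0.168 and 0.133). MAGEB6 had 4, 12 and 6 reads against 2, 9 and 8, a ratio of 1.11 (0.571 to 2.16, adjusted p = 0.889 by edgeR without the filter). For MAGEC3 and MAGEB2 the control libraries all lay above the others, and for MAGEC1 and MAGEB6 the groups overlapped. Such intervals cover counting error only, and low counts here are not fully independent reads: in the 6 libraries 64.1% to 70.1% of counts from 1 to 6 were even, against 49.3% to 51.0% of counts over 1000.

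All 6 type II members were tested, and 4 were lower, none higher and 2 not called, beside 23.4% lower and 22.0% higher over all tested genes. Of the 4, NDN and MAGEH1 passed the filter through sgCTRL. Among MAGE genes outside the symbol rule, TRO fell and NSMCE3 rose, as given below. NDN (chr15:23685400-23687305), an imprinted growth suppressor from the region lost in Prader-Willi syndrome, had 249, 210 and 214 reads in sgCTRL and 0, 2 and 2 in the libraries labelled sgSEPHS2. These are 5.91, 5.08 and 5.36 CPM against 0, 0.0464 and 0.0493 CPM. The control group held 161 times more (95% exact conditional binomial interval 62.4 to 591, counting error only), with an edgeR log2 fold change of -7.20, SE 0.32 (adjusted p = 1.37e-13). MKRN3 and SNRPN, imprinted genes 117 kb and 1136 kb from NDN that are likewise read from the paternal copy, were not called. MKRN3 had 6.20 ± 0.474 CPM in sgCTRL and 6.90 ± 0.0706 CPM in the other group (edgeR log2 fold change 0.15, SE 0.11, adjusted p = 0.263). SNRPN had 4.60 ± 1.06 and 4.77 ± 0.642 CPM (edgeR log2 fold change 0.06, SE 0.15, adjusted p = 0.782). SNURF, of the same locus as SNRPN, was not called either (edgeR adjusted p = 0.332), while GOLGA8S, 317 kb away, fell from 1.51 to 0.803 CPM (edgeR log2 fold change -0.92, adjusted p = 0.00520). These are the nearest tested protein-coding genes whose mean reached 1 CPM, 2 on each side, as for the neighbours named below, a rule set after the members' values were seen.

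MAGEH1 (chrX:55452127-55453566), whose product was found as a partner of the p75 neurotrophin receptor, fell. It had 82, 100 and 62 reads in sgCTRL and 10 in each library labelled sgSEPHS2, or 1.94, 2.42 and 1.55 CPM against 0.293, 0.232 and 0.247 CPM. The groups were far apart, with an edgeR log2 fold change of -2.94, SE 0.30 (adjusted p = 7.34e-08). Its neighbours at higher coordinates, FOXR2 and RRAGB, had log2 fold changes of 0.07 and 0.00 (edgeR adjusted p = 0.482 and 0.996), and those at lower coordinates were APEX2 and TRO, described with MAGED2.

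MAGED1 (chrX:51803076-51902354), known as NRAGE and also a partner of the p75 receptor, had 116, 115 and 112 CPM in sgCTRL and 70.8, 76.9 and 74.1 CPM in the other group. The fall was an edgeR log2 fold change of -0.63, SE 0.04 (adjusted p = 2.40e-10). MAGED2 (chrX:54807745-54816015), which is mutated in a transient antenatal form of Bartter syndrome, had 62.8, 65.9 and 67.6 CPM against 39.6, 49.6 and 47.7 CPM (edgeR log2 fold change -0.52, SE 0.06, adjusted p = 9.66e-07). In both genes all 3 libraries labelled sgSEPHS2 lay below all 3 controls. TRO, a neighbour of MAGED2 that is itself a MAGE-D gene without the symbol, fell from 29.4 ± 1.80 to 16.8 ± 0.902 CPM (edgeR log2 fold change -0.81, adjusted p = 1.86e-09). Its other neighbours differed in direction. ITIH6, which passed the filter through sgCTRL, fell from 2.22 to 0.255 CPM (edgeR log2 fold change -3.11, adjusted p = 9.04e-09). APEX2 rose by 0.31 (edgeR adjusted p = 3.84e-05) and GNL3L had 0.01 (edgeR adjusted p = 0.862). Beside MAGED1, GSPT2 had a log2 fold change of -0.31 and NUDT11 of -1.85 (adjusted p by edgeR 0.00183 and 2.02e-08). FAM156A and FAM156B, its neighbours at higher coordinates, had the same values as each other, 0.749 ± 0.370 CPM in sgCTRL and 3.11 ± 4.30 CPM in the other group (edgeR log2 fold change 2.09, adjusted p = 0.0121).

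MAGEF1, which acts on the iron-sulfur assembly pathway through a ubiquitin ligase, had 74.5, 79.7 and 77.3 CPM in sgCTRL and 74.7, 79.9 and 79.1 CPM in the other group (edgeR log2 fold change 0.01, SE 0.05, adjusted p = 0.833). MAGEE1 had 3.32, 2.95 and 3.48 CPM against 2.55, 3.36 and 2.93 CPM (edgeR log2 fold change -0.13, SE 0.15, adjusted p = 0.517). The groups overlapped for both.

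**Figure D2:**
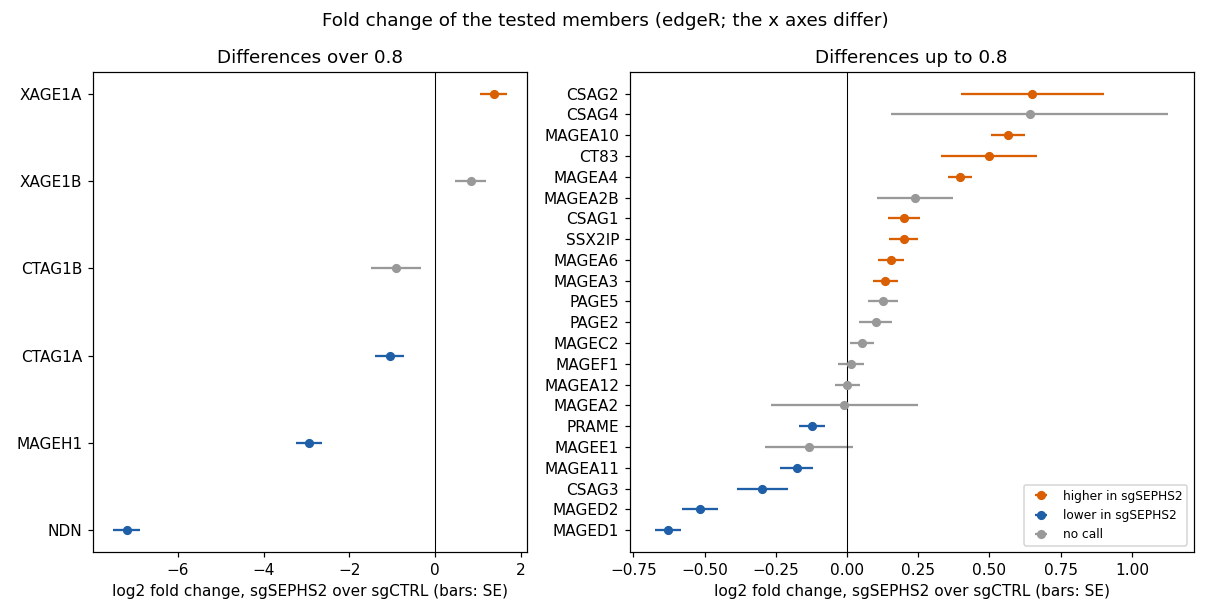
Log2 fold change of the 28 tested members, libraries labelled sgSEPHS2 over sgCTRL, with bars for the SE and separate x axes for differences over and up to 0.8. Orange marks members called higher, blue those called lower and grey those not called at an edgeR adjusted p of 0.05. NDN (-7.20) and MAGEH1 (-2.94) lie far below the rest, and the other type II calls, MAGED1 and MAGED2, are the lowest in the right panel.

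The XAGE and PAGE genes encode small antigens related to GAGE. PAGE5 had 139, 161 and 159 CPM in sgCTRL and 162, 176 and 163 CPM in the libraries labelled sgSEPHS2. The groups did not overlap but by a narrow margin, and it was not called (edgeR log2 fold change 0.13, SE 0.05, adjusted p = 0.0528). A call was reached under 6 alternatives, limma-voom among them (adjusted p = 0.0486). PAGE2 had 46.6, 52.9 and 53.1 CPM against 53.3, 58.2 and 51.9 CPM (edgeR log2 fold change 0.10, SE 0.06, adjusted p = 0.169). XAGE1A had 0.640, 1.21 and 1.33 CPM in sgCTRL and 4.60, 1.60 and 2.10 CPM in the other group, and was called higher (edgeR log2 fold change 1.36, SE 0.32, adjusted p = 0.00144). Its copy XAGE1B had 2.63, 0.847 and 1.35 CPM against 1.76, 1.65 and 5.18 CPM and was not called (edgeR log2 fold change 0.83, SE 0.37, adjusted p = 0.0701). The share of the pair's reads given to XAGE1A ranged from 19.6% to 72.4%, so the level of either copy alone is uncertain. XAGE1B gained a call without sgCTRL replicate 1 (edgeR log2 fold change 1.39, adjusted p = 0.00820) or without replicate 1 or 2 labelled sgSEPHS2 (edgeR adjusted p = 0.0216 and 0.0255). Without replicate 3 labelled sgSEPHS2, its highest library, its log2 fold change was 0.07 (edgeR adjusted p = 0.882). Together they had 3.27, 2.06 and 2.68 CPM in sgCTRL and 6.35, 3.25 and 7.28 CPM in the other group, where the lowest library fell within the control range. The summed pair had an edgeR log2 fold change of 1.07, SE 0.22 (adjusted p = 5.09e-04).

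CSAG genes, first described in chondrosarcoma, lie between the MAGEA genes of the MAGEA3 cluster. CSAG1 had 36.0, 40.5 and 37.7 CPM in sgCTRL and 41.1, 44.8 and 45.2 CPM in the libraries labelled sgSEPHS2. It was called higher with no overlap (edgeR log2 fold change 0.20, SE 0.06, adjusted p = 0.00556), and missed the threshold without sgCTRL replicate 1 (edgeR adjusted p = 0.0516). CSAG3 was called lower, at 28.2, 29.4 and 22.7 CPM against 19.1, 25.0 and 21.0 CPM (edgeR log2 fold change -0.30, SE 0.09, adjusted p = 0.0103). Its copy CSAG2 was called higher, at 2.56, 2.25 and 6.69 CPM against 5.36, 5.96 and 6.61 CPM (edgeR log2 fold change 0.65, SE 0.25, adjusted p = 0.0397). For both copies the groups overlapped. CSAG2 lost its call without sgCTRL replicate 1 or 2 and without replicate 2 or 3 of the libraries labelled sgSEPHS2 (edgeR adjusted p = 0.0967 to 0.247), and with DESeq2 (adjusted p = 0.337). Without sgCTRL replicate 3, the highest control, its log2 fold change was 1.31 (edgeR adjusted p = 5.86e-07). CSAG3 lost its own without sgCTRL replicate 1 or 2 or without replicate 1 labelled sgSEPHS2 (edgeR adjusted p = 0.0532 to 0.0871). The share of the pair's reads given to CSAG2 was 8.32%, 7.12% and 22.7% in sgCTRL and 19.2% to 23.9% in the other group. Summed, the pair had 30.8, 31.6 and 29.4 CPM against 24.5, 31.0 and 27.6 CPM and was not called (edgeR log2 fold change -0.14, SE 0.07, adjusted p = 0.118). CSAG4 had 0.125 to 0.261 CPM in sgCTRL and 0.263 to 0.395 CPM in the other group and was not called (edgeR adjusted p = 0.307).

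**Figure D3:**
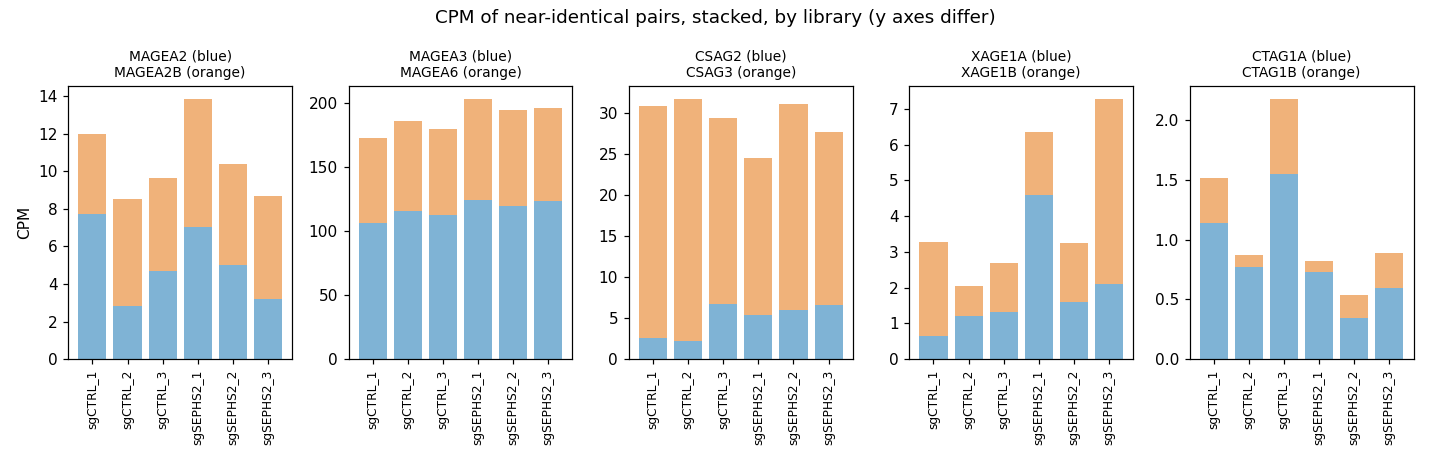
CPM of the 5 near-identical pairs in each of the 6 libraries, stacked, with the first copy in blue and the second in orange; each panel has its own y axis from 0. The split is steady for MAGEA3 and MAGEA6 (61.4% to 63.0% to MAGEA3) and varies widely between libraries for MAGEA2 and MAGEA2B and for XAGE1A and XAGE1B.

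**Figure D4:**
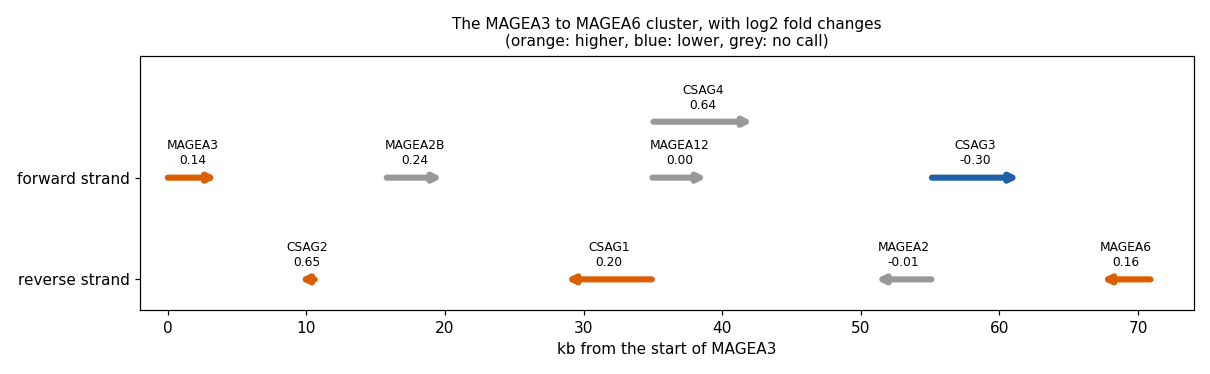
The cluster from MAGEA3 to MAGEA6 on the X chromosome, in kb from the start of MAGEA3, with the log2 fold change above each gene. Arrows span the RefSeq position of each gene and point along its strand in GENCODE v29. MAGEA3, CSAG2 and MAGEA2B on the left are mirrored by MAGEA2, CSAG3 and MAGEA6 on the right, and the 2 CSAG copies carry opposite calls, while their summed reads were not called.

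The map of the MAGEA3 cluster shows its mirrored layout, in which each gene on the left has a near-identical copy on the right in the opposite orientation. CSAG1 and MAGEA12 start close together at its centre and run in opposite directions, and CSAG4 overlaps MAGEA12 on the same strand. How the counting treated strand and shared positions is unknown, so reads from such overlapping genes may be mixed.

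CTAG1A and CTAG1B both encode NY-ESO-1, a widely studied vaccine and T cell target. CTAG1A had 48, 32 and 62 reads in sgCTRL and 25, 15 and 24 in the libraries labelled sgSEPHS2, or 1.14, 0.775 and 1.55 CPM against 0.732, 0.348 and 0.592 CPM. It was called lower (edgeR log2 fold change -1.06, SE 0.35, adjusted p = 0.0160), and the call was lost without sgCTRL replicate 3 (log2 fold change -0.80, adjusted p = 0.101) or without replicate 2 labelled sgSEPHS2 (-0.80, adjusted p = 0.0826). CTAG1B had 16, 4 and 25 reads against 3, 8 and 12 (edgeR log2 fold change -0.91, SE 0.59, adjusted p = 0.229), and its log2 fold change was -0.30 without sgCTRL replicate 3 (edgeR adjusted p = 0.764). Summed, the pair had 1.52, 0.871 and 2.18 CPM against 0.820, 0.534 and 0.888 CPM, which overlap, with an edgeR log2 fold change of -1.03, SE 0.31 (adjusted p = 0.0108).

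PRAME (chr22:22547701-22559265), a melanoma antigen that represses retinoic acid receptor signalling and serves as a substrate receptor for CUL2 ubiquitin ligases, was slightly lower. It had 142, 138 and 139 CPM in sgCTRL and 119, 134 and 131 CPM in the other group (edgeR log2 fold change -0.12, SE 0.05, adjusted p = 0.0316). The groups did not overlap, but the call was lost without any 1 of the 3 controls or without replicate 1 labelled sgSEPHS2, its lowest library (edgeR adjusted p = 0.0574 to 0.142). CT83, an X-linked antigen also called KK-LC-1, had 2.66, 2.59 and 3.10 CPM against 4.54, 4.34 and 2.93 CPM. The groups overlapped, since replicate 3 labelled sgSEPHS2 lay within the control range, and it was called higher (edgeR log2 fold change 0.50, SE 0.17, adjusted p = 0.0196). That call was lost when sgCTRL replicate 1 or 2, or replicate 1 or 2 labelled sgSEPHS2, was left out (edgeR adjusted p = 0.0599 to 0.0913). SSX2IP, a centrosome and junction protein, had 43.7, 48.0 and 46.7 CPM in sgCTRL and 53.7, 51.1 and 54.2 CPM in the other group (edgeR log2 fold change 0.20, SE 0.05, adjusted p = 0.00288).

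Genes that write, read or remove DNA methylation were described beside the members because promoter methylation is the known brake on them. Of 17 tested genes 7 rose and 5 fell, with a median log2 fold change of 0.03. HELLS, a remodeller needed for DNA methylation, rose from 81.2 ± 0.874 to 128 ± 5.17 CPM (edgeR log2 fold change 0.65, adjusted p = 1.04e-10). UHRF1, which brings DNMT1 to replicating DNA, and the reader MBD3 rose by 0.47 and 0.33 on the log2 scale. The de novo methyltransferase gene DNMT3A fell from 38.3 ± 1.00 to 28.3 ± 0.728 CPM (edgeR log2 fold change -0.44, adjusted p = 7.39e-07). DNMT3B, also a de novo methyltransferase gene, and DNMT1 rose by 0.26 and 0.22 on the log2 scale (edgeR adjusted p = 0.0269 and 9.64e-04).

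Among 17 tested genes of histone-based silencing 7 rose and 5 fell, with a median of 0.08. The Polycomb genes EZH2 and EED rose by 0.35 and 0.26, and SUV39H1, a histone H3 methyltransferase gene, by 0.40 on the log2 scale. KDM5B, a histone demethylase sometimes listed as a cancer-testis antigen itself, fell from 212 ± 6.14 to 141 ± 11.8 CPM (edgeR log2 fold change -0.59, adjusted p = 5.78e-09). Of 12 genes of the Polycomb complex with MGA and E2F6, known to repress germline genes, 2 rose and 1 fell, CBX3 by 0.25, WDR5 by 0.13 and MGA by -0.15. That count was 1 in all without sgCTRL replicate 2 or without sgCTRL replicate 3.

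Partners and targets of MAGE proteins showed 8 higher and 3 lower of 18 tested. Of the 3 lower, TRIM31 passed the filter through sgCTRL, at 0.600 ± 0.0475 CPM there and 0.137 ± 0.0407 CPM in the other group. TRIM28, the ligase bound by MAGEA3, MAGEA6 and MAGEC2, rose from 310 ± 9.68 to 356 ± 10.04 CPM (edgeR log2 fold change 0.20, adjusted p = 4.29e-04). SMC6, NSMCE2 and NSMCE4A, of the SMC5-SMC6 complex that holds a MAGE subunit, rose by 0.28, 0.30 and 0.26 on the log2 scale. NSMCE3, the gene for that MAGE subunit, rose from 19.4 ± 1.32 to 22.0 ± 0.549 CPM (edgeR log2 fold change 0.18, adjusted p = 0.0284). The groups did not overlap, and NSMCE3 was named after its values were seen. SMC5 and NSMCE1, of the same complex, were not called (edgeR log2 fold change -0.01 and -0.08, adjusted p = 0.856 and 0.314). Of 7 genes for PRAME's partners 3 rose and 3 fell. The ligase subunit gene ELOC rose by 0.31, and the retinoic acid receptor genes RARA, RARB and RARG fell by 0.24, 0.25 and 0.26 on the log2 scale (edgeR adjusted p = 0.00336, 0.00762 and 9.80e-05). The lists of this and the preceding paragraphs were compiled from general knowledge and received no set test. Calls made up 70.6% of the methylation list, 70.6% of the histone list and 25.0% of the Polycomb complex with MGA. They made up 61.1% of the MAGE partners and 85.7% of PRAME's. Over all tested genes the share was 45.4%, and over those with a mean of at least 1 CPM it was 49.9%.

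Of 55 other cancer-testis genes 21 were tested, with 3 higher and 5 lower. That is 38.1% called, beside 45.4% of all tested genes. Of the 5 lower, VCX3A and DDX53 passed the filter through sgCTRL. IL13RA2, a decoy receptor for interleukin-13 and the most abundant of those named, fell from 715 ± 13.4 to 471 ± 24.8 CPM (edgeR log2 fold change -0.60, adjusted p = 3.46e-10). POTEE, which has close paralogs, fell by 0.44. VCX3A, an X-linked germ cell gene, had 41, 42 and 36 reads in sgCTRL and 0 in each library labelled sgSEPHS2, so it was at least 37.9-fold lower against a floor of 3 reads over the group. DDX53, a helicase-like X-linked gene, had 18, 11 and 18 reads against 0 in each, at least 15.0-fold lower. VCX and VCX2, paralogs of VCX3A that did not pass the filter, had 33 and 21 reads over sgCTRL and 0 over the other group, at least 10.5-fold and 6.68-fold lower. VCX and VCX2 were named after their values were seen. Read sharing among the VCX genes was not tested. The floor ratios of VCX3A, DDX53, VCX and VCX2 leave out the counting error of the sgCTRL reads. An exact lower limit can be smaller, as it was for MAGEB2. The neighbours of MAGEB2, taken as the nearest tested genes whose mean reached 1 CPM, all fell, beside 23.4% lower over all tested genes. At lower coordinates, IL1RAPL1, 259 kb away, had a log2 fold change of -0.47 and PPP4R3C, 2752 kb away, -4.14 (edgeR adjusted p = 7.25e-06 and 1.78e-10). At higher coordinates, GK, 433 kb away, had -1.34 and TAB3, 607 kb away, -0.26 (edgeR adjusted p = 1.30e-06 and 5.42e-05). PPP4R3C, at 3.49 CPM in sgCTRL and 0.194 CPM in the other group, passed the filter through sgCTRL. It lies nearer to MAGEB6, at 1265 kb, and the ratio of control to other reads for MAGEB6 was 1.11. On the far side of MAGEB6, POLA1 rose by 0.18 on the log2 scale (edgeR adjusted p = 0.00347) and PCYT1B was not called (edgeR adjusted p = 0.668).

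In a further list 7 of 7 tested genes were called higher, beside 22.0% of all tested genes. These genes are called cancer-testis antigens in some lists but serve cell division, and their median log2 fold change was 0.53. Among them PBK rose from 75.6 ± 1.58 to 114 ± 7.97 CPM (edgeR log2 fold change 0.60, adjusted p = 2.90e-09), and CEP55, ATAD2 and NUF2 rose by 0.56, 0.56 and 0.48. The rise of cell division genes in these libraries was already known when the list was made, so its direction is no independent evidence.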

How the data were processed

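Total RNA was prepared for sequencing by Illumina protocols, per the labels' protocols. What the authors deposited is a single matrix of unnormalized counts, 1 integer for each gene symbol and library. The submitters' processing notes name HISAT2 2.2.1, featureCounts 2.0.6 of Subread, SAMtools 1.21 and FastQC 0.12.1, and the build GRCh38. Annotation, strand setting and the handling of multi-mapping reads, which decides how paralogs split reads, have no source here. Groups and replicate numbers come from the sample titles.

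The whole table was fitted with edgeR 4.0.16 in R 4.3.3 (TMM factors, default filter by group, two-sided quasi-likelihood test), and Benjamini-Hochberg adjustment ran over 16910 genes with a threshold of 0.05. CPM used TMM-scaled library sizes, which were 34606145 to 43405579 reads before scaling. Fold changes are the libraries labelled sgSEPHS2 over sgCTRL. Every member is described, with values by library where the mean was at least 1 CPM or a call was made. Of each other list up to 4 genes are named by smallest adjusted p. Added outside this rule, after their values were seen, are VCX, VCX2, NSMCE3, DNMT1, DNMT3B, TRIM31, SMC5 and NSMCE1. Members and lists were chosen with earlier results of these data known. Positions and promoters are RefSeq's on GRCh38.p14, and transcripts and the strands in the cluster map are those of GENCODE v29. The fit was repeated with RLE or upper-quartile factors, without the filter, with a filter of 1 CPM in 3 libraries, with limma-voom (limma 3.58.1) or DESeq2 1.42.0, with the replicate block, with each library left out and, added after seeing the data, with paralog pairs summed. The procedure was also run on simulated counts with 200 changed genes and no shared reads. That setting is unlike these data, so no conclusion is drawn from it.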

Additional observations from a re-analysis of the deposited data

How the results depend on the processing

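Of 17 called members, 9 kept call and direction under each of the 14 alternatives that gave them a value: NDN, MAGEH1, MAGED1, MAGED2, MAGEA4, MAGEA10, MAGEA6, XAGE1A and SSX2IP. The other 8 lost the call at least once and none reversed. PAGE5 and XAGE1B, not called, gained a call at least once. With paralog pairs summed, 8 were higher and 7 lower. Members called higher numbered 6 to 10 and members called lower 6 to 9 over all alternatives, against 9 and 8. The count left out by the filter was 4, and became 0 with no filter, 7 with at least 1 CPM in 3 libraries, and 2 to 4 with 1 library left out. Calls among the 12 genes of the Polycomb complex with MGA fell from 3 to between 1 and 3 with 1 library left out. The filter sets the first difference by construction, and for the Polycomb complex the cause was not tested. With the replicate block 7774 genes were called against 7673, 10 members higher and 8 lower. Libraries with the same number share only a number: their deviations from the group means correlated at 0.09, 0.01 and 0.12 over 14043 genes, and 3 of 6 libraries correlated best with their own number. Depth limits MAGEB2, MAGEB6, MAGEC1 and MAGEC3, and read assignment limits the paralog pairs.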
